A study of Mus musculus with 4 samples.

Results

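The 10 genes described here encode ligands of the epidermal growth factor (EGF) family (Egf, Hbegf, Tgfa, Btc, Areg and Ereg) and the ERBB receptors (Egfr, Erbb2, Erbb3 and Erbb4), out of 54078 features in the table. They were taken by gene name, which found 9 of them. The tenth, Areg, was found by its Ensembl identifier, ENSMUSG00000029378: the table describes this gene as amphiregulin but prints the name Mcub for it, a name that it also gives to the calcium uniporter gene ENSMUSG00000027994.

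The RNA came from kidneys of adult male mice at day 3 after bilateral ischemia-reperfusion (bI/R), in which both kidneys were clamped for 30 min. WT mice were Apela flox/flox littermates without Cre, and KO mice were Apela flox/flox with Cre driven by the Ksp-cadherin promoter, which the study describes as active in renal tubular epithelial cells. Both groups therefore carry the floxed allele and both were injured, and no uninjured kidney was analysed here. Each group has 2 libraries, and each library is a pool of RNA from 3 mice, so n = 2 counts pools and the spread between single mice is not seen. The strain is C57BL/6 x 129S4/SvJae in the labels and C57BL/6 in the study's methods.

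Between 16045724 and 16927742 reads per pool fell on genes. The targeted gene itself, Apela, measured 5.27 and 4.57 FPKM in WT and 0.536 and 0.245 FPKM in KO pools, with a limma adjusted p of 0.466, the smallest value reached, which other genes shared. Adipose tissue is named as the source in the series' design text, and kidney in the labels. Umod, the uromodulin gene of the thick ascending limb, lay between 788 and 1133 FPKM and Slc34a1, the proximal tubule phosphate transporter, between 365 and 898. Of the 9 listed adipose markers, the fat cell genes Adipoq (0.268 FPKM in KO replicate 2, 0 elsewhere) and Ucp1 (0 in all 4 pools) were at or near 0, while others were present. The list summed to 13.9 and 14.5 FPKM in WT and 28.5 and 16.1 in KO pools, of which Fabp4, a gene also of endothelium, took 10.2 to 14.6, and the lipid droplet gene Cidec reached 7.92 in KO replicate 1. Over the 4 pools, fibroblast markers summed to 185 to 379 FPKM, T cell markers to 1.28 to 3.29 and urothelium markers to 1.38 to 4.33.

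EGF family ligands are made as membrane-bound precursors that proteases of the ADAM family release. A ligand brings receptors together in pairs, and the paired kinases switch on RAS-ERK and PI3K signalling. EGFR binds EGF, TGF-alpha and amphiregulin, betacellulin, epiregulin and HB-EGF bind both EGFR and ERBB4, ERBB3 binds neuregulins and has a nearly inactive kinase, and ERBB2 has no known ligand of its own and serves as partner. In the kidney, EGF is made chiefly by the distal nephron, where it promotes magnesium reabsorption, and EGFR signalling takes part in the regrowth of tubular epithelium after injury.

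Promoters of a pair of ligands are shown because Egf and Areg were the tested ligands with the largest within-genotype SD on the log2(FPKM + 0.5) scale. The sequences are from RefSeq on GRCm38.p6, each of 300 bases ending shortly after the gene's start, and capitals mark matches, on either strand, to TATAAA, to the cAMP response element TGACGTCA or to the AP-1 sequence TGANTCA. The Areg promoter lies at chr5:91139349-91139648 on the plus strand and that of Egf at chr3:129755273-129755572 on the minus strand.
Areg: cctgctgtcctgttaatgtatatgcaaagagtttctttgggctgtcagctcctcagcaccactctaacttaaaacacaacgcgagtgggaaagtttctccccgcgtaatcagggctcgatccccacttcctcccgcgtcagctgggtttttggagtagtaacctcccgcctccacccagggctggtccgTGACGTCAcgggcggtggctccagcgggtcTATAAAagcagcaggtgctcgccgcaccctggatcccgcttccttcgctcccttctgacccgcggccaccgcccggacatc
Egf: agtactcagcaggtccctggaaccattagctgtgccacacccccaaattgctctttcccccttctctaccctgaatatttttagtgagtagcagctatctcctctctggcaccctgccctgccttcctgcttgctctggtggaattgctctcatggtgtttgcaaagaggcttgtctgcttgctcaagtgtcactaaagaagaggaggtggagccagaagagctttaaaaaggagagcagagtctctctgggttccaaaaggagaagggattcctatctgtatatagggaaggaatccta
The Areg promoter held TGACGTCA at position 190 and TATAAA at position 220, counted from its first base, and the matches do not overlap. Of the 32851 promoters of this length, 1.79% held TGACGTCA, 13.6% held TATAAA and 7.81% held TGANTCA. None of the 3 was found in the printed Egf promoter, nor in the other 6 member promoters (a second one of Egf, and those of Btc, Tgfa, Egfr, Erbb2 and Erbb4). The printed Egf promoter contained no CG dinucleotide, against 21 in that of Areg, 24 in that of Tgfa and a median of 7 over all promoters, while the second Egf promoter contained 17. Hbegf, Ereg and Erbb3 had no entry.

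Among the ligands, Egf and Hbegf were the most abundant, and no ligand separated the genotypes. FPKM is scaled per length of gene, so a comparison of different genes within a pool depends on the length used. The shares given here rest on the deposited lengths, and the order of Egf and Hbegf changed with another length (below). Together, Egf and Hbegf held 92.3% and 87.8% of the summed FPKM of the 6 ligands in the WT pools, against 84.1% and 94.5% for KO. Tgfa, Btc and Areg lay between 0.410 and 1.80 FPKM in all pools, and Ereg did not reach 0.15. Among the receptors, Erbb2 and Erbb3 held 76.6% to 84.5% of the summed FPKM, followed by Egfr and then Erbb4 in each of the 4 pools.

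**Figure D1:**
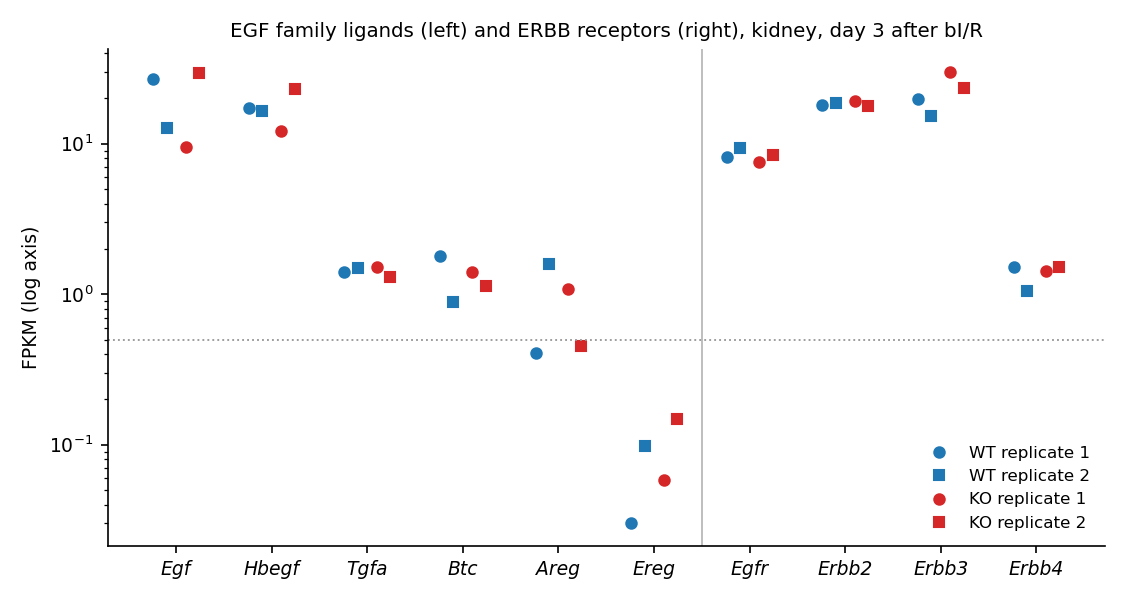
FPKM of each member (log axis) in the 2 WT pools (blue) and the 2 KO pools (red), with circles for replicate 1 and squares for replicate 2; the dotted line is the mean FPKM of 0.5 that a gene needed to be tested. Erbb3 is the one member whose KO pools both lie above both WT pools, and Egf and Areg spread widely within each genotype.

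Egf (ENSMUSG00000028017, chr3:129677565-129755316, minus strand) encodes the transmembrane precursor of EGF. Its WT pools measured 26.8 and 12.6 FPKM, against 9.52 and 29.5 for KO, from 4854, 2452, 1795 and 5409 reads. WT replicate 1 and KO replicate 2 were high, WT replicate 2 and KO replicate 1 were low, and the genotypes overlapped. Mean FPKM was 19.7 ± 10.003 (SD, n = 2) for WT against 19.5 ± 14.2 (SD, n = 2) for KO, and the log2 fold change was -0.13 (standard error, SE, 0.63, with a Benjamini-Hochberg adjusted p from limma of 0.978). The sign of this value turned with the pool left out, from -0.92 without KO replicate 2 to 0.67 without KO replicate 1. The within-genotype SD of Egf was 0.95 on the log2(FPKM + 0.5) scale, which 98.3% of the tested genes did not exceed, against a median of 0.161 over all tested genes.

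Of the 10 listed markers of the thick ascending limb and distal convoluted tubule, 6 had the pool order of Egf, with WT replicate 1 and KO replicate 2 both above the other pools, and 4 did not. The same order was seen in 16.4% of all genes tested. Among the 6, Calb1, the calcium-binding protein calbindin of distal tubules, measured 37.8 and 20.8 FPKM in WT pools, against 16.1 and 43.2 for KO. Pvalb, the parvalbumin gene of the early distal convoluted tubule, had 2.21 and 0.726 in WT and 0.287 and 2.25 in KO pools. Slc12a3, the thiazide-sensitive sodium chloride cotransporter, had 79.7 and 64.3 in WT and 52.9 and 84.7 in KO pools. The others were Trpm6, Sall3 and Kcnj1, the potassium channel gene of the thick ascending limb and collecting duct.

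The 4 markers with another order were Umod, Slc12a1, Cldn16 and Trpv5. Trpv5, a calcium channel of the distal nephron, had 15.0 and 15.5 FPKM in WT and 14.8 and 10.3 in KO pools, and was thus lowest in KO replicate 2, the pool highest in Egf. Umod had 1080 and 788 in WT and 1133 and 858 in KO pools, and Slc12a1, the sodium-potassium-chloride cotransporter, 138 and 65.6 in WT and 149 and 117 in KO pools. The order of Egf was not particular to this list. It was also that of 5 of the 10 collecting duct and intercalated cell markers, among them Slc26a4, the pendrin gene, and of 2 of the 10 proximal tubule markers, Aqp1 and Acsm2. None of the injured tubule, macrophage, fibroblast, endothelial, T cell, urothelium and adipose markers had it.

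The level of Egf relative to a marker in the same pool depended on the marker, and was taken for Calb1, Slc12a3, Slc12a1 and Umod only. Egf per Calb1 varied 1.2 times between the lowest and the highest pool, at 0.709 and 0.608 in WT and 0.592 and 0.684 in KO pools. Egf per Slc12a3 varied 1.94 times, Egf per Slc12a1 3.96 times and Egf per Umod 4.10 times. The summed FPKM of the thick ascending limb and distal list, most of it Umod and with no gene at 0 in any pool, was 1401 and 992 in WT and 1412 and 1166 in KO pools. That of the proximal list was 2815 and 2072 in WT and 1830 and 2509 in KO pools, and that of the collecting duct list 394 and 257 in WT and 407 and 339 in KO pools. The part of these cells in the level of Egf was not tested, and fewer cells of a type cannot be told apart from less RNA per cell in bulk RNA.

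**Figure D2:**
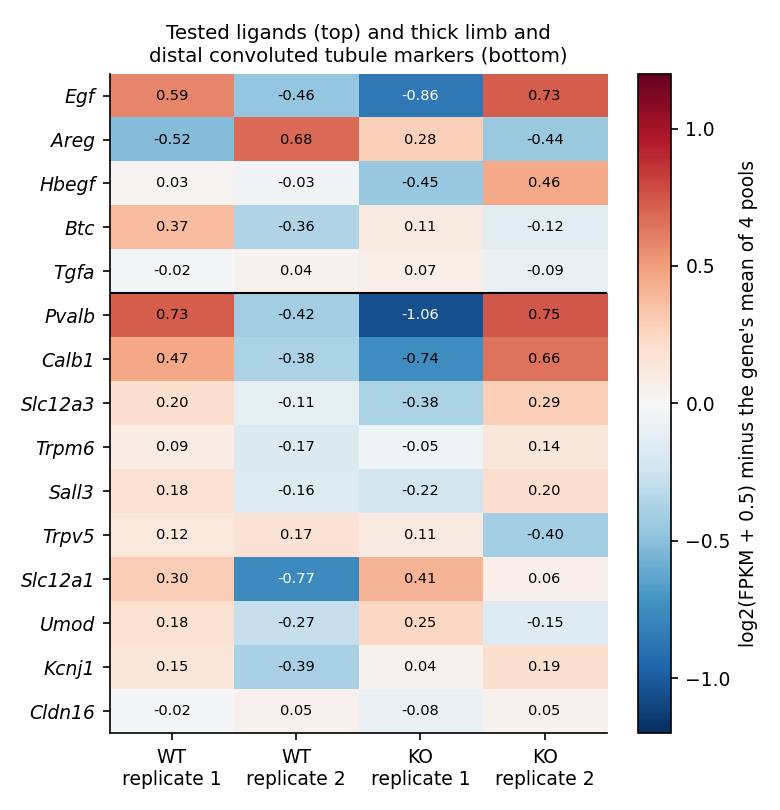
Difference of each pool from the gene's mean of 4 pools, as log2(FPKM + 0.5), for the 5 tested ligands and the 10 markers of the thick ascending limb and distal convoluted tubule. Egf, Pvalb and Calb1 are above their means in WT replicate 1 and KO replicate 2 and below them in the other pools, and Areg is the reverse.

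Hbegf encodes heparin-binding EGF-like growth factor (HB-EGF), which is made as a membrane-bound precursor. Its WT pools measured 17.1 and 16.4 FPKM, against 12.1 and 23.2 for KO. KO replicate 1 was lowest and KO replicate 2 highest, with both WT pools in between. The log2 fold change was 0.0014 (SE 0.32, limma adjusted p = 0.9996). Leaving out KO replicate 2 gave -0.45 (limma unadjusted p = 0.0460, adjusted p = 0.971) and leaving out KO replicate 1 gave 0.46 (limma unadjusted p = 0.0453, adjusted p = 0.977), so the direction followed the KO pool that was kept.

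Whether Egf or Hbegf was the leading ligand depended on the gene length. With the deposited lengths, Egf exceeded Hbegf 1.56 times in WT replicate 1 and 1.27 times in KO replicate 2, and the ratio was 0.770 in WT replicate 2 and 0.785 in KO replicate 1. The deposited length of Egf, 11275 bases, is 2.37 times that of its longest coding transcript in GENCODE M21, which has 24 exons and 4761 nt, while the 2373 bases of Hbegf differ from its 2375 nt transcript by a ratio of 0.999. Scaled by the longest coding transcript instead, Egf exceeded Hbegf in all 4 pools, by 3.70 and 1.83 times in WT and 1.86 and 3.02 times in KO. The reads were not recounted, so any Egf reads outside that transcript raise these ratios. Fold changes between pools do not depend on this length, apart from the added pseudocount.

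**Figure D3:**
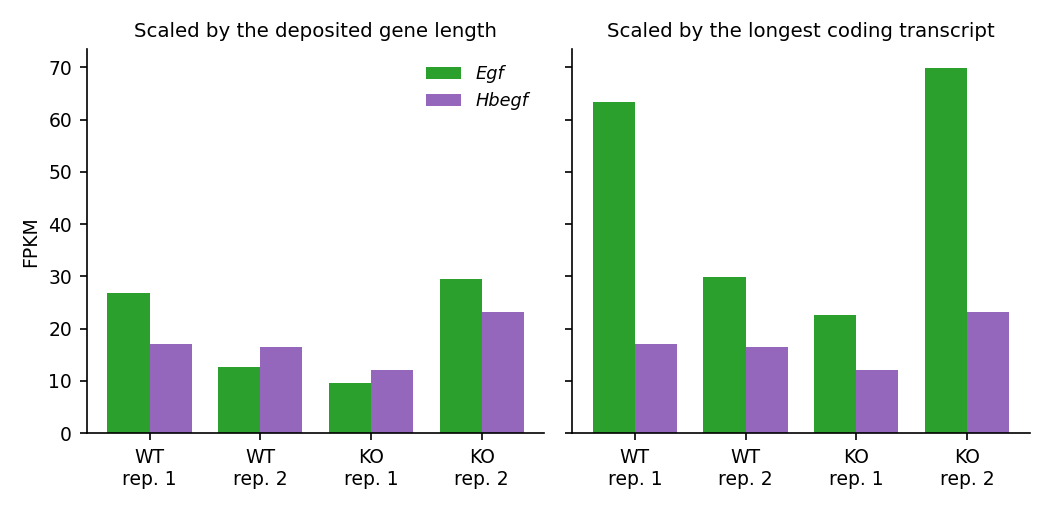
FPKM of Egf (green) and Hbegf (purple) in each pool, scaled by the deposited gene length (left) and by the longest coding transcript (right). Hbegf exceeds Egf in WT replicate 2 and KO replicate 1 on the left, and Egf exceeds Hbegf in every pool on the right.

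Areg encodes amphiregulin, an EGFR ligand of epithelial and immune cells. Its WT pools measured 0.410 and 1.58 FPKM, against 1.08 and 0.456 for KO, from 8, 33, 22 and 9 reads. WT replicate 2 and KO replicate 1 were the high pools, the opposite of Egf, and the genotypes overlapped. The log2 fold change was -0.16 (SE 0.50, limma adjusted p = 0.962), and its within-genotype SD of 0.70 was not exceeded by 96.3% of the tested genes. All 11 listed macrophage markers were detected in every pool, with a summed FPKM of 209 and 492 in WT and 265 and 237 in KO pools, of which Lyz2, the lysozyme gene of myeloid cells, was the largest part. The highest sum was thus in WT replicate 2, the pool highest in Areg. That pool was also highest in the summed fibroblast markers (185 and 379 in WT, 231 and 316 in KO pools). The same held for T cell markers (1.63 and 3.29 in WT, 1.58 and 1.28 in KO pools). Each of the other cell type lists had its highest sum in another pool. The part of these cells in the level of Areg was not tested.

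Areg, Ereg and Btc lie close together on chromosome 5, with Epgn, the gene of the ligand epigen. These 4 genes span 376 kb of GRCm38 from 91027464 to 91402994, and their levels differed. Epgn (from 91027464 to 91035215, plus strand) was at 0 reads in all 4 pools. Ereg (91074622 to 91093646, plus strand), the epiregulin gene, had 2 and 7 reads in WT pools, against 4 and 10 in the KO pools, or 0.0301 and 0.0986 against 0.0579 and 0.149 FPKM, and was under the filter and not tested. Areg lies from 91139599 to 91148432 on the plus strand. Btc (91357261 to 91402994, minus strand), the betacellulin gene, measured 1.80 and 0.887 FPKM in WT pools, against 1.42 and 1.13 for KO. Both KO pools lay between the WT pools, and the log2 fold change was -0.016 (SE 0.30, limma adjusted p = 0.995).

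Tgfa (chr6:86195223-86275719, plus strand), the gene of TGF-alpha, was the steadiest of the tested ligands. Its WT pools measured 1.41 and 1.49 FPKM, against 1.52 and 1.31 for KO. The highest pool was 1.16 times the lowest, and the log2 fold change was -0.027 (SE 0.17, limma adjusted p = 0.984).

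Erbb3 was the receptor with a higher level in both KO pools. It lies on chromosome 10 (chr10:128567523-128589652, minus strand, ENSMUSG00000018166) and its coding transcript has 28 exons. Its WT pools measured 19.7 and 15.3 FPKM, against 30.0 and 23.5 for KO, from 1902, 1587, 3022 and 2297 reads, a mean of 17.5 ± 3.07 (SD, n = 2) for WT against 26.8 ± 4.61 (SD, n = 2) for KO. The groups did not overlap. The log2 fold change was 0.60 (SE 0.19), and limma gave an unadjusted p of 0.0291 and an adjusted p of 0.785. It did not pass the threshold over all genes. It stayed positive in every alternative run, but was 0.42 without WT replicate 2 and 0.43 without KO replicate 1, where the unadjusted limma p was 0.118 and 0.130 and the adjusted p 0.992 and 0.977. Of the 10 listed injured tubule markers, 5 were higher in both KO pools and 1 was lower in both, against 19.7% and 18.1% of all genes tested. Among them Lcn2, which encodes the injury marker NGAL, had an FPKM of 133 and 95.2 in WT and 249 and 273 in KO pools, and Krt20, a keratin of injured tubules, 35.6 and 36.8 in WT and 60.0 and 61.0 in KO pools. The gene lower in both was Vcam1, an adhesion molecule of failed-repair tubule cells and endothelium. It had 14.6 and 31.0 in WT and 10.5 and 2.59 in KO pools. The other 4 overlapped, among them Havcr1, with 210 and 393 in WT and 249 and 105 in KO pools. Of the 10 log2 fold changes, 7 were above 0 and 3 below. The sum of this list, most of it Spp1, was 7672 and 8628 in WT and 9849 and 7628 in KO pools. The endothelial list, of which 0 genes passed an adjusted p of 0.05 (limma), summed to 198 and 227 FPKM in WT and 271 and 293 in KO pools, of which Plvap, a gene of fenestrated capillaries, took 103 and 110 in WT and 161 and 152 in KO pools. Of its 9 genes, 5 were higher and 0 lower in both KO pools (against 19.7% and 18.1% of all genes tested), and 4 overlapped. No gene of either list was at 0 in any pool. The other tubule lists had fewer genes higher in both KO pools (against 19.7% higher and 18.1% lower of all genes tested). Of the 10 thick ascending limb and distal markers, 0 were higher and 1 lower, and of the 10 proximal markers 2 and 4. Of the 9 tested collecting duct and intercalated cell markers, 0 were higher and 1 lower. The part of any of these cells in the level of Erbb3 was not tested.

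The other receptors overlapped between the genotypes. Erbb2 (chr11:98412470-98437716, plus strand), the partner receptor that lacks a ligand, measured 18.0 and 18.6 FPKM in WT pools, against 19.2 and 17.8 for KO. Its highest pool was 1.08 times its lowest, and the log2 fold change was 0.015 (SE 0.11, limma adjusted p = 0.987). Relative to Erbb2 in the same pool, Erbb3 FPKM was 1.09 and 0.824 in WT and 1.56 and 1.32 in KO pools.

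Egfr (chr11:16752203-16918158, plus strand), the receptor of EGF itself, measured 8.17 and 9.31 FPKM in WT pools, against 7.59 and 8.40 for KO. KO replicate 1 was the lowest pool and WT replicate 2 the highest. The log2 fold change was -0.12 (SE 0.13, limma adjusted p = 0.873), and it stayed negative with each pool left out, between -0.21 and -0.032. Erbb4 (chr1:68032186-69108059, minus strand), a neuregulin receptor with an active kinase, had 1.51 and 1.05 in WT pools, against 1.42 and 1.51 for KO. WT replicate 2 was the low pool, and the log2 fold change was 0.15 (SE 0.20, limma adjusted p = 0.899).

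**Figure D4:**
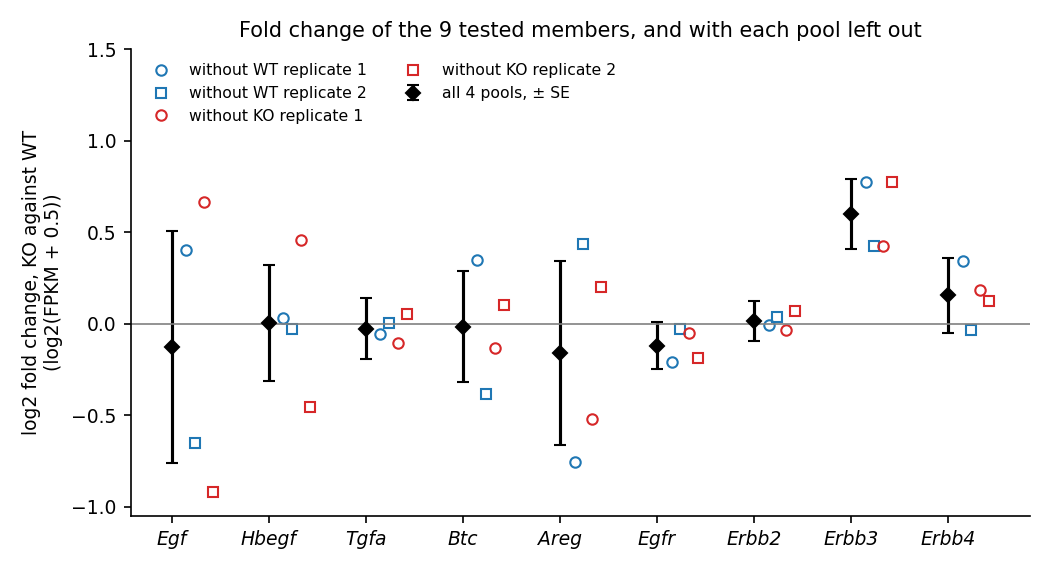
Log2 fold change of KO against WT on the log2(FPKM + 0.5) scale for the 9 tested members (black diamonds, with standard errors), and the value with each pool left out in turn (open symbols). Erbb3 and Egfr keep their sign in all 4 leave-one-out values, and Egf, Hbegf, Areg, Btc, Tgfa, Erbb2 and Erbb4 range on both sides of 0.

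Of the 10 members, 9 were tested, and with limma 0 had an adjusted p under 0.05, as did 0% of the 15414 genes tested. At an unadjusted p under 0.05 there was 1 member, Erbb3, against 6.32% of all genes (3.29% higher and 3.03% lower in KO), and the same gene was the only one of the 9 with no overlap of the pools, against 37.8% of all genes (19.7% with KO higher and 18.1% with KO lower). The median log2 fold change of the 9 was -0.016, beside 0.0071 over all genes tested, and the fold changes on this scale understate those of low genes such as Areg. With 2 pools a side, no exact permutation test can reach a two-sided p of 0.05, and none was run.

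The other genes of the pathway were taken from 5 lists with 68 genes besides the members, of which 63 were tested. With limma, 0 had an adjusted p under 0.05, and the 4 (6.35%) with an unadjusted p under 0.05, against 6.32% of all genes, were all higher in the KO pools. Both KO pools lay above both WT pools for 14 of the 63 (22.2%, against 19.7% of all genes) and below them for 4 (6.35%, against 18.1%). Of the 4 genes, 3 are on the list of feedback inhibitors and 1, Rhbdf1, is on that of sheddases.

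Among the 14 feedback inhibitors, all tested, Errfi1, Spred2 and Dusp4 had an unadjusted p under 0.05 (against 3.29% of all genes, counted as higher in KO), and 4 of the 14 were higher in both KO pools (against 19.7% of all genes). The median log2 fold change of the list was 0.17, and its genes ranged from -0.12 to 0.74. The median was 0.062 without KO replicate 2. Errfi1, whose product MIG6 binds and inhibits ERBB kinases, was the most abundant, with an FPKM of 201 and 181 in WT pools, against 255 and 267 for KO. Its log2 fold change was 0.45 (SE 0.16, limma adjusted p = 0.785), and 0.29 after quantile normalization. Dusp4, a phosphatase of ERK, had 7.63 and 9.84 in WT and 12.5 and 17.5 in KO pools, a log2 fold change of 0.74 (SE 0.22, limma adjusted p = 0.785). Spred2, an inhibitor of RAS-ERK signalling, had 10.6 and 12.0 in WT and 14.3 and 14.1 in KO pools, a log2 fold change of 0.32 (SE 0.12, limma adjusted p = 0.785). These values do not pass the threshold over all genes.

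Of the 8 sheddases and iRhom genes, Rhbdf1, whose product iRhom1 escorts the sheddase ADAM17, had 19.8 and 20.8 FPKM in WT pools, against 29.0 and 25.7 in the KO pools. The pools did not overlap, and the log2 fold change was 0.42 (SE 0.12, limma adjusted p = 0.770). Adam17 itself, the main sheddase of Hbegf, Areg and Tgfa, had 6.31 and 7.76 in WT and 5.78 and 6.75 in KO pools, which overlapped. Leaving out a pool took the unadjusted p of Erbb3, Errfi1, Spred2, Dusp4 and Rhbdf1 above 0.05 in at least 1 case each, with the highest at 0.130, 0.195, 0.160, 0.0976 and 0.101 and adjusted p-values over all settings from 0.387 to 0.992 (limma). With all pools kept, the unadjusted limma p of Errfi1 was 0.0782 with quantile normalization, 0.0949 with the replicate block and 0.0548 with no filter, and that of Spred2 was 0.0655 with quantile normalization, 0.069 with no trend and 0.0760 with the replicate block, with adjusted p-values in the range above. Erbb3, Dusp4 and Rhbdf1 stayed under 0.05 in these settings.

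Of the 5 other EGF family ligands, Epgn and Nrg3 were at 0 reads in all 4 pools, Nrg2 was under the filter, and Nrg1 and Nrg4 were tested. Nrg1, the neuregulin 1 gene and source of ligands for ERBB3 and ERBB4, was the most abundant, with an FPKM of 3.77 and 5.18 in WT and 4.24 and 4.67 in KO pools and a log2 fold change of 0.0069 (limma adjusted p = 0.997). Of the 28 adaptors and kinases, 8 were higher and 4 lower in both KO pools (against 19.7% and 18.1% of all genes) and none had an unadjusted p under 0.05. Their median log2 fold change was 0.059, and 0.0097 without WT replicate 1 and 0.021 with quantile normalization. The most abundant was Mapk3, which encodes the kinase ERK1, with 38.4 and 46.4 in WT and 46.9 and 44.3 in KO pools. Of the 16 ERK-induced transcripts, which include the members Areg, Ereg and Hbegf, 13 were tested, the pools of all 13 overlapped, and the median log2 fold change was -0.12. This median turned to 0.21 without WT replicate 2 and to 0.12 without KO replicate 1. It was -0.30 without WT replicate 1 and -0.22 without KO replicate 2. The most abundant, the early response gene Ier3, had 44.7 and 54.6 in WT and 39.3 and 52.3 in KO pools.

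**Figure D5:**
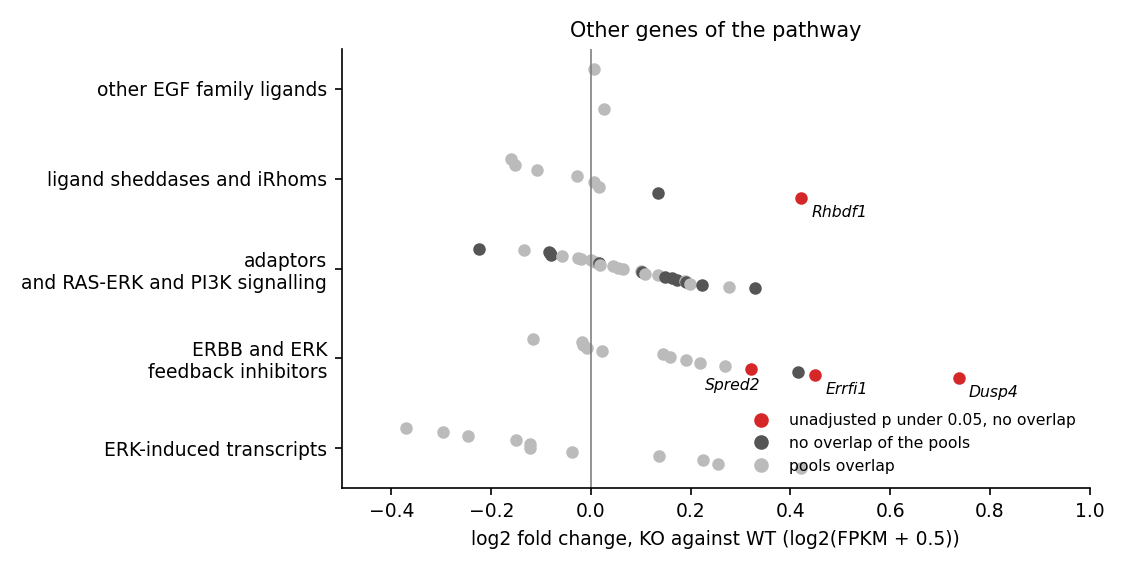
Log2 fold change of KO against WT for the 63 tested genes of the 5 pathway lists, members left out, 1 point per gene. The 4 genes in red, with an unadjusted p under 0.05 and no overlap of the pools, all lie to the right of 0.

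Among annotated genes that overlap a member, only Mien1 exceeded 2 FPKM in any pool. Mien1, at 25.9 to 32.6 FPKM, shares 9 bases with Erbb2 on the other strand, and the antisense genes that overlap Egf did not exceed 0.181 FPKM. Whether counting used the strand is not given in the sources used here.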

How the data were processed

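Renal RNA of 4 pools, each from 3 mice, was sequenced after poly-T selection. Per the labels, reads were aligned with HISAT2 2.0.5 to mm10 (GRCm38.p6), and the counting tool is not given in the sources used here. The authors deposited FPKM, fragments scaled to gene length and to the library total, for 54078 features. FPKM multiplied by gene length gave whole multiples of the value of 1 read for 100% of nonzero values (within 0.01 read), and these reads, 16045724 to 16927742 per pool, gave the depth. Symbols were taken from GENCODE M21 by gene ID (53620 matched, 1591 of them named otherwise in the table).

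KO and WT pools were compared with limma 3.58.1 in R 4.3.3 on log2(FPKM + 0.5), eBayes with its trend option, for 15414 genes whose mean FPKM reached 0.5, two-sided and Benjamini-Hochberg adjusted at 0.05, with no covariate. The study's methods name no model. The fit was tested on simulated data. Other settings tried were: voom weights from the recovered reads, quantile normalization, a fit on protein-coding genes, a block for replicate number, eBayes lacking the trend, pseudocounts of 1 and 0.1, mean FPKM limits of 1 and none, other thresholds, and each pool left out. With a pool left out, limma assumes that the lone pool varies like the other group. Scaling by the longest coding transcript was added after the data were seen. Plots were drawn in Python 3.11.15.

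The members, the gene lists and the tests were chosen with earlier results of these data known. All 10 members were named. Of the pathway lists, genes with an unadjusted p under 0.05 and no overlap of the pools were named, or else the gene with the highest mean FPKM. Of each cell type list, the summed FPKM was given, with the most abundant gene for some of the lists only. The other genes named from the lists, and the count of markers with the pool order of Egf, were chosen after their values were seen.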

Additional observations from a re-analysis of the deposited data

How the results depend on the processing

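The number of genes past an adjusted p of 0.05 was 0 in every setting that kept this threshold, both among all genes and among the members and pathway genes. With an unadjusted p under 0.05 as the threshold it was 974 genes, 1 member and 4 pathway genes, and the settings and leave-one-out fits gave 687 to 1720 genes at that level (limma). Among members this was Erbb3 alone, except that it was 0 members without WT replicate 2, Hbegf in place of Erbb3 without KO replicate 1, and both genes without KO replicate 2, with Hbegf in opposite directions in these 2 fits. Among pathway genes it ranged from 2 with quantile normalization to 6 without WT replicate 1. Of 80 fold changes of members under the other settings, 74 kept their sign. That of Hbegf became -0.00030 with a pseudocount of 0.1, -0.032 with quantile normalization and -0.0026 with voom weights, that of Btc 0.0018 with quantile normalization and 0.014 with voom weights, and that of Erbb2 -0.021 with quantile normalization. These main values lie within their standard errors of 0, and what turned the sign was not tested. With a pool left out, 23 of 36 kept their sign. The ranges were -0.92 to 0.67 for Egf, -0.45 to 0.46 for Hbegf, -0.11 to 0.053 for Tgfa, -0.38 to 0.35 for Btc, -0.76 to 0.44 for Areg, -0.037 to 0.067 for Erbb2, -0.033 to 0.34 for Erbb4, -0.20 to 0.21 for Nrg1, -0.026 to 0.24 for Mapk3 and -0.33 to 0.082 for Ier3. The study's methods do not say whether same-numbered pools were processed together. Their deviations had a correlation of -0.0017 across genes, a single value that cannot decide this, and a shared batch was not tested. In a fit with a replicate block 0 genes passed, with 932 at an unadjusted p under 0.05 (limma). Few reads limit Areg (8 to 33 per pool) and Ereg (2 to 10), whose values carry counting error besides the variation between pools.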
